A study of Mus musculus with 8 samples.

Results

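The 4 adult hemoglobin genes and Alas2 were followed in the brain cortex of mice on 2 diets. They are the 5 rows of the deposited expression table named Hba-a1, Hba-a2, Hbb-bs, Hbb-bt and Alas2, out of 13996 rows in all. The cortexes came from male C57BL/6 mice that were 8 weeks old at the start and received their diet for 8 weeks, so that all were 16 weeks old when the tissue was taken under ether. The control mice (Normal, n = 4) ate a conventional diet and the high fat diet mice (HFD, n = 4) ate a diet with 60% fat by weight, with 1 library of rRNA-depleted total RNA per mouse. The sources used here mention no perfusion of the brain with saline, so blood could remain in its vessels. Values are FPKM, counts of sequenced fragments scaled to transcript length and library depth, which can be compared between genes because they are given per length.

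Hemoglobin carries oxygen in red blood cells as a tetramer of alpha and beta globin chains, each of which holds a heme group. Hba-a1 and Hba-a2 encode alpha chains, and Hbb-bs and Hbb-bt encode the adult beta chains of mouse strains such as C57BL/6. Alas2 encodes the erythroid 5-aminolevulinate synthase, the enzyme that starts heme synthesis in red cell precursors, while Alas1 does the same in other cells. The youngest red cells in the circulation still contain these mRNAs, and globin transcripts have also been described in neurons and glia. In bulk tissue, fewer cells of a type and less RNA per cell cannot be told apart.

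All 5 genes were lower in the HFD cortexes, at between 56.7% and 63.8% of the Normal mean. Each decrease passed limma's test with Benjamini-Hochberg adjustment over 13982 genes (adjusted p below 0.05), although that of Hba-a1 passed it barely. The same test called 33.1% of all genes tested, of which 17.7% of genes tested were higher and 15.3% lower in HFD. All 5 also changed by more than 50% (a Normal level at least 1.5 times the HFD level on the log scale), as did 2.90% of all genes in the lower direction. The genes do not count as 5 separate observations, because the alpha genes resemble each other closely, and so do the beta genes.

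The genes lie at 3 places in the genome (GRCm38). Hba-a1 (chr11:32283511-32284465) and Hba-a2 (chr11:32296489-32297298) are neighbours on the plus strand with 3 exons each. Hbb-bs (chr7:103826534-103828096) and Hbb-bt (chr7:103812524-103813996) are neighbours on the minus strand, while Alas2 (chrX:150547375-150570638) has 11 exons on the plus strand. Of the stretches of 100 bases in the main transcript of Hba-a1, 56.5% also occurred in that of Hba-a2, and 74.5% of those of Hba-a2 occurred in Hba-a1. The same shares were 62.6% for Hbb-bs in Hbb-bt and 54.8% for Hbb-bt in Hbb-bs. No stretch was shared between alpha genes, beta genes and Alas2, so the split of reads is uncertain within a globin pair.

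Sequences upstream of the genes are shown as background, because the regulation of globin and heme genes in red cell precursors is known to run through short upstream motifs. Their part in the decrease was not tested. GATA1 binds GATA sites, KLF1 binds CACCC boxes, and CCAAT and TATA boxes serve general factors. The stretches come from RefSeq (GRCm38.p6), were read 5′ to 3′ on the strand of the gene, and end before the annotated transcript begins. They cover chr11:32296242-32296488 for Hba-a2, chr7:103827929-103828178 for Hbb-bs, chr7:103813997-103814173 for Hbb-bt and chrX:150547167-150547374 for Alas2. Capitals mark the GATA motif (GATAA, or on the other strand TTATC), the CACCC motif (CACCC, on the other strand GGGTG), the CCAAT motif (CCAAT, on the other strand ATTGG) and the TATA motif (TATAA, on the other strand TTATA).
Hba-a2: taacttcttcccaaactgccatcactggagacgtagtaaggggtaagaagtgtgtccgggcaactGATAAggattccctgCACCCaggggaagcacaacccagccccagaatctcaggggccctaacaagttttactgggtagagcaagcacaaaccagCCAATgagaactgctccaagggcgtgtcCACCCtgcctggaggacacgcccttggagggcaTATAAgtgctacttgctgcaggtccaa
Hbb-bs: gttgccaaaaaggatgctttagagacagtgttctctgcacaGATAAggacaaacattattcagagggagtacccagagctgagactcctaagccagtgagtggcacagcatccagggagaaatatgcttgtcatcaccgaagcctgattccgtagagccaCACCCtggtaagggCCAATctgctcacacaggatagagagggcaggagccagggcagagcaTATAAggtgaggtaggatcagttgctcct
Hbb-bt: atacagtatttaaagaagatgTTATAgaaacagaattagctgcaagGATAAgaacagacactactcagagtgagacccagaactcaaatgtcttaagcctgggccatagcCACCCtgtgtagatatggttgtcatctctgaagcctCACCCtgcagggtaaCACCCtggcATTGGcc
Alas2: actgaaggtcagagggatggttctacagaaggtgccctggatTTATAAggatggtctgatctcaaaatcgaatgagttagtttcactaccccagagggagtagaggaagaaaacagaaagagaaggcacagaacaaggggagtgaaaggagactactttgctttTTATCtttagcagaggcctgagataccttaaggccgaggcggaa

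The 250 bases before the RefSeq start were searched in full for each of the 5 genes. Those of Hba-a1 and Hba-a2 shared a run of 247 bases, which is why only 1 of them is printed, whereas the longest run shared by Hbb-bs and Hbb-bt was 14 bases. The windows of all 4 globin genes held each of the 4 motifs, as did 0.968% of 32851 RefSeq windows of the same length. Counted back from the start, the motif TATAA began at base 30 in Hba-a2, base 29 in Hbb-bs and base 28 in Hbb-bt, the last of these beyond the printed stretch. The window of Alas2 held 1 GATA motif, 3 CACCC motifs on the other strand and 2 overlapping TATA motifs at base 208, and no CCAAT. Its CACCC motifs lie between bases 40 and 26, again beyond the printed stretch. Single motifs were common, with GATA in 22.6% of windows, CACCC in 52%, CCAAT in 33.8% and TATA in 22.8%. These matches describe letters only and no factor was measured here.

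Among the alpha globin genes, Hba-a1 had FPKM of 78.9, 114.4, 86.9 and 51.1 in Normal 1 to 4 and of 55.4, 50.7, 45.0 and 60.3 in HFD 1 to 4. Normal 4 lay within the HFD values, and 2 HFD mice were above it. The means were 82.8 ± 26.0 (SD, n = 4) and 52.8 ± 6.54 (SD, n = 4). The log2 fold change on the log2(FPKM + 0.1) scale, HFD minus Normal, was -0.60 (SE 0.21, 95% interval -1.06 to -0.14, limma adjusted p = 0.0499). That call was lost when any 1 of 7 mice was left out, with limma adjusted p-values of 0.0771 without Normal 1, 0.108 without Normal 2, 0.106 without Normal 3, 0.0835 without HFD 1, 0.106 without HFD 2, 0.119 without HFD 3 and 0.0599 without HFD 4. The value itself was -0.42 without Normal 2, the smallest of these.

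Hba-a2, which codes for the same kind of chain, had FPKM of 53.4, 58.4, 49.0 and 31.9 in Normal 1 to 4. It had 29.4, 27.4, 32.0 and 32.1 in HFD 1 to 4. The HFD mice were tightly grouped, and Normal 4 again fell among them, just below HFD 3 and HFD 4. The means of 48.2 ± 11.5 and 30.2 ± 2.26 (SD, n = 4 each) gave a log2 fold change of -0.64 (SE 0.16, 95% interval -1.0 to -0.27, limma adjusted p = 0.0156).

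Of the beta globin genes, Hbb-bs was the most abundant transcript of the 5, with FPKM of 225.3, 282.7, 209.7 and 143.6 in Normal 1 to 4. In HFD 1 to 4 it was 136.9, 129.7, 111.3 and 144.5. Only HFD 4 was above the lowest Normal mouse, and by less than 1 FPKM. The means were 215 ± 57.2 and 131 ± 14.2 (SD, n = 4 each), and the log2 fold change was -0.69 (SE 0.18, 95% interval -1.08 to -0.29, limma adjusted p = 0.0163).

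Hbb-bt, the beta gene with the lower values, had FPKM of 15.3, 19.3, 14.3 and 9.9 in Normal 1 to 4 and of 9.4, 8.6, 9.0 and 8.5 in HFD 1 to 4. Every HFD mouse was below every Normal mouse, although Normal 4 exceeded HFD 1 by little. Such a separation in the lower direction was seen for 14.7% of all genes tested. The means were 14.7 ± 3.86 and 8.88 ± 0.411 (SD, n = 4 each), with a log2 fold change of -0.68 (SE 0.16, 95% interval -1.05 to -0.32, limma adjusted p = 0.0124).

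Alas2, the heme synthesis gene of the erythroid line, had FPKM of 4.6, 4.9, 3.5 and 2.7 in Normal 1 to 4. It had 2.5, 2.6, 1.8 and 2.0 in HFD 1 to 4, again with no overlap, but with Normal 4 only 0.1 FPKM (the rounding step of the table) above HFD 2. The means were 3.92 ± 1.01 and 2.22 ± 0.386 (SD, n = 4 each), and the log2 fold change was -0.77 (SE 0.19, 95% interval -1.2 to -0.34, limma adjusted p = 0.0151). Rounding matters most for this gene, where an error of 0.05 FPKM is 2.78% of the lowest value.

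**Figure D1:**
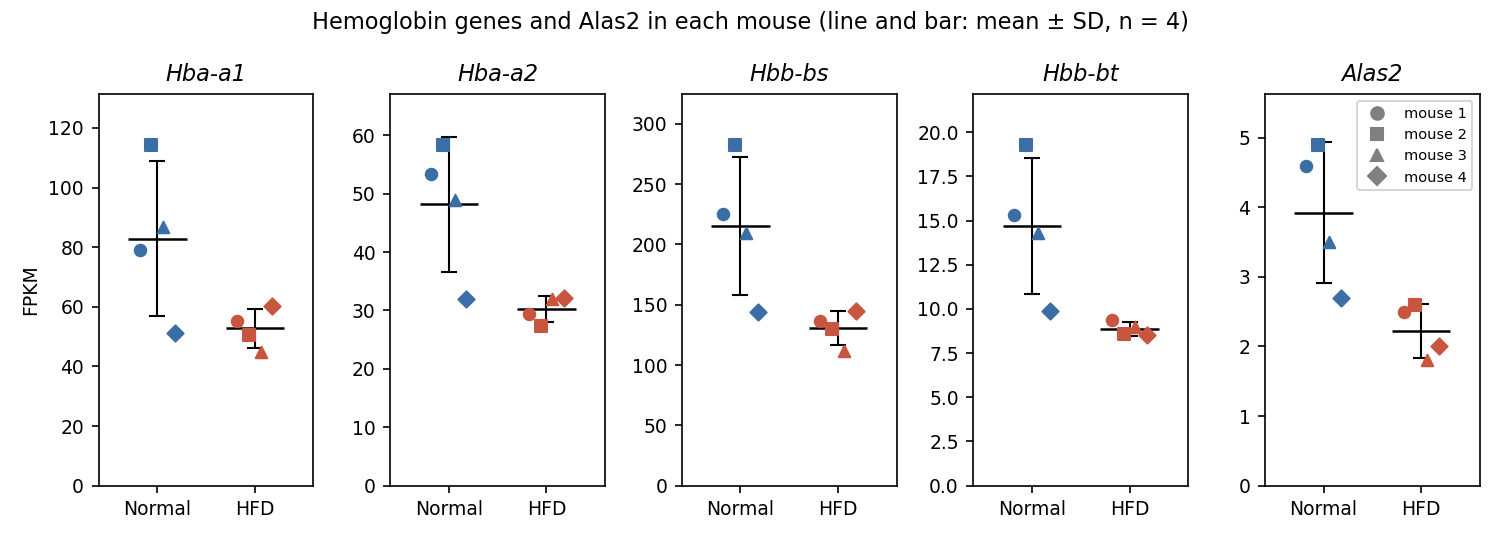
FPKM (vertical axis) of each gene in the 4 Normal and the 4 HFD mice, with 1 point per mouse and the mean and SD as lines. In every panel Normal 2 is the highest mouse and Normal 4 lies within or just above the HFD mice.

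The 5 genes kept 1 order in 8 of 8 mice, from Hbb-bs through Hba-a1, Hba-a2 and Hbb-bt to Alas2. Between mice the ranges of the neighbours Hba-a1 (45.0 to 114.4 FPKM) and Hba-a2 (27.4 to 58.4 FPKM) overlapped, as did those of Hbb-bs and Hba-a1, which reached down to 111.3 and up to 114.4 FPKM. Hba-a2, Hbb-bt and Alas2 did not overlap with each other. By mean FPKM, Hbb-bs ranked 322 of all genes in the table and Alas2 ranked 11095. The summed FPKM of the 4 globin genes was 372.9, 474.8, 359.9 and 236.5 in Normal 1 to 4, and 231.1, 216.4, 197.3 and 245.4 in HFD 1 to 4. This sum made up 0.0404% to 0.0777% of all FPKM in the Normal mice and 0.0325% to 0.0401% in the HFD mice. The globin genes were thus a small part of the summed FPKM in every mouse, which is not their share of the reads.

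The spread between mice was wider on the normal diet. The SD was between 23.9% and 31.4% of the mean for the 5 genes in Normal mice and between 4.63% and 17.4% in HFD mice. Normal 2 and Normal 4 formed the ends of the Normal values, and their log2 values averaged over the 5 genes lay 0.41 above and 0.55 below the mean of their diet. All 5 genes were highest in Normal 2 and, among the Normal mice, lowest in Normal 4. Without Normal 4 the log2 fold changes were -0.81 for Hba-a1, -0.82 for Hba-a2, -0.87 for Hbb-bs, -0.86 for Hbb-bt and -0.93 for Alas2. All 5 then passed the test with limma adjusted p-values between 0.000419 and 0.00417, as did 15.3% of genes tested in the lower direction. No source used here gives a reason to leave this mouse out, and the values with it stand as the main result.

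**Figure D2:**
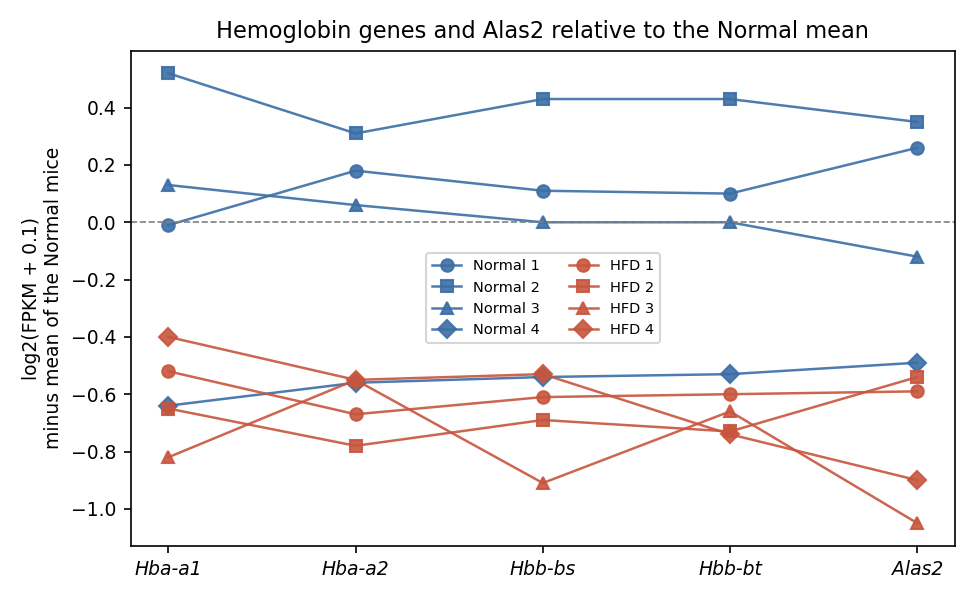
log2(FPKM + 0.1) of each gene in each mouse minus the mean of the Normal mice (vertical axis), with 1 line per mouse. Normal 2 lies highest, Normal 1 and Normal 3 lie between -0.12 and 0.26, and Normal 4 lies between -0.64 and -0.49, among the HFD mice for Hba-a1 and Hba-a2, level with the highest of them for Hbb-bs and just above all of them for Hbb-bt and Alas2.

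Within the diets the genes also varied together from mouse to mouse. Over 8 mice, on deviations from the diet means, Hba-a1 and Hbb-bs had Pearson's r of 0.98 and Spearman's rho of 0.90 (exact permutation p = 0.00694 and 0.0156 over 576 arrangements, adjusted over 3 relations 0.0208 and 0.0468). For Hbb-bs and Alas2, r was 0.83 and rho was 0.69 (exact permutation p = 0.0278 and 0.104, adjusted 0.0417 and 0.156). Hba-a1 and Alas2 did not pass, with r of 0.73 and rho of 0.55 (exact permutation p = 0.102 and 0.24, adjusted 0.102 and 0.24). Normal 2 and Normal 4 lay farthest from the median, and with both left out the correlation was 0.83 for Hba-a1 and Hbb-bs, 0.51 for Hbb-bs and Alas2 and 0.06 for Hba-a1 and Alas2 (exact permutation p = 0.125, 0.375 and 0.896). The relation of Hba-a1 with Hbb-bs thus stayed large but no longer passed over 6 mice, and those with Alas2 rest on Normal 2 and Normal 4.

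Whether the diets changed the proportions of the transcripts was asked with 4 ratios taken within each mouse. Hba-a1 per Hba-a2 was 1.48, 1.96, 1.77 and 1.6 in Normal 1 to 4 and 1.88, 1.85, 1.41 and 1.88 in HFD 1 to 4. The mean log2 ratios of 0.76 ± 0.18 and 0.80 ± 0.21 (SD, n = 4 each) differed by 0.04 (exact two-sided permutation p = 0.771, adjusted over the 4 ratios 0.971). Here HFD 3 stood apart from the other HFD mice.

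The beta genes had a nearly constant proportion on the normal diet. Hbb-bs per Hbb-bt was 14.7, 14.6, 14.7 and 14.5 in Normal 1 to 4 and 14.6, 15.1, 12.4 and 17 in HFD 1 to 4. The diets had the same mean log2 ratio, 3.87, with an SD of 0.01 in Normal and 0.19 in HFD mice (exact two-sided permutation p = 0.971, adjusted 0.971, n = 4 each).

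The balance of alpha to beta chains at the RNA level was also close between the diets. Summed alpha per summed beta globin was 0.55, 0.572, 0.607 and 0.541 in Normal 1 to 4, and 0.58, 0.565, 0.64 and 0.604 in HFD 1 to 4. The log2 means differed by 0.07 (-0.82 ± 0.07 against -0.75 ± 0.08, SD, n = 4 each, exact two-sided permutation p = 0.257, adjusted 0.743). Alas2 amounted to 1.23%, 1.03%, 0.972% and 1.14% of the globin sum in Normal 1 to 4 and to 1.08%, 1.2%, 0.912% and 0.815% in HFD 1 to 4. Its log2 ratio differed by -0.14 (-6.52 ± 0.15 against -6.66 ± 0.25, SD, n = 4 each, exact two-sided permutation p = 0.371, adjusted 0.743). With 70 assignments of mice to diets the smallest p is 0.0286, and none of the 4 ratios differed beyond the spread between mice.

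**Figure D3:**
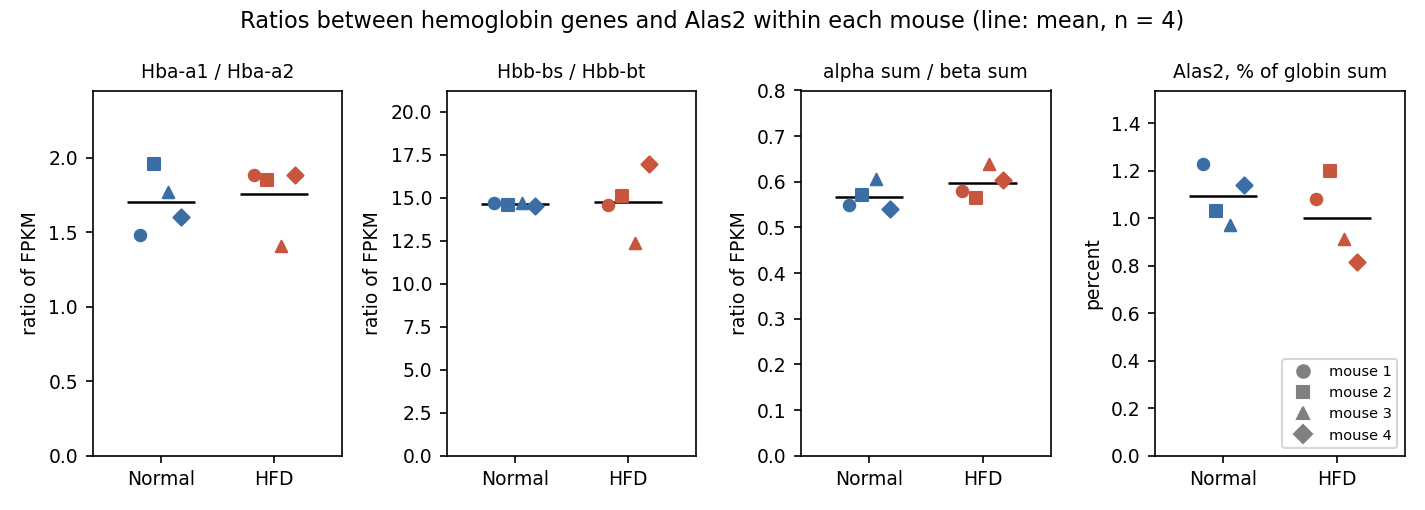
Ratios of FPKM within each mouse for the alpha pair, the beta pair and summed alpha to summed beta globin, and Alas2 as a percent of the globin sum (vertical axes), with 1 point per mouse and the mean as a line. The diets overlap in all 4 panels, and Hbb-bs per Hbb-bt stays between 14.5 and 14.7 in Normal mice but runs from 12.4 to 17 in HFD mice.

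The other genes of heme and iron handling moved in both directions. Of the 8 enzymes of heme synthesis other than Alas2, 2 rose and none fell in limma's test, also at an unadjusted p below 0.05, with a median log2 fold change of 0.06 beside 0.003 over all genes tested. The 2 are 25.0% of the list, beside 17.7% of all genes tested that were higher. Alas1, the enzyme of non-erythroid cells, was the most abundant of them and had 25.5 ± 1.62 FPKM in Normal and 26.6 ± 0.988 in HFD mice (SD, n = 4 each, log2 fold change 0.06, limma adjusted p = 0.417). Ppox, which makes protoporphyrin from its precursor, rose by 0.34 on the log2 scale (limma adjusted p = 0.00706), with 5.5, 4.7, 5.0 and 5.0 FPKM in Normal 1 to 4 and 6.2, 6.2, 6.9 and 6.3 in HFD 1 to 4. Uros, an earlier enzyme of the pathway, rose by 0.24 (limma adjusted p = 0.0361), a call that was lost without Normal 2, Normal 3, HFD 1, HFD 2 or HFD 4, with limma adjusted p up to 0.0938. Fech, which inserts iron into protoporphyrin to make heme, had a log2 fold change of 0.05 (limma adjusted p = 0.484). None of the 4 genes of heme breakdown passed limma's adjusted threshold and 1, Hmox2, was lower at an unadjusted p below 0.05, with log2 fold changes of -0.31 for Hmox1, the inducible heme oxygenase, and -0.10 for Hmox2, the constitutive form.

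Among 18 genes of heme and iron transport, 5 fell and 2 rose, with a median log2 fold change of -0.07. The 5 are 27.8% of the list, beside 15.3% of all genes tested that were lower, and 3 remained past the threshold without HFD 2. Tfrc, the transferrin receptor that takes up iron, had FPKM of 40.4, 33.3, 40.0 and 39.7 in Normal 1 to 4 and of 25.7, 27.1, 26.1 and 25.2 in HFD 1 to 4. The diets did not overlap, and the log2 fold change was -0.55 (limma adjusted p = 0.000827). Trf, transferrin itself, which oligodendrocytes and choroid plexus make in the brain, had 166.4, 232.9, 217.4 and 127.4 FPKM in Normal 1 to 4. It had 110.4, 102.7, 132.3 and 119.2 in HFD 1 to 4, with HFD 3 above Normal 4, and the log2 fold change was -0.65 (limma adjusted p = 0.019, and 0.0563 without HFD 2). Smaller decreases were found for Tmem14c, a mitochondrial porphyrin transporter (-0.25), for Aco1, an iron-sensing RNA-binding protein (-0.21), and for Ncoa4, the receptor for ferritin turnover (-0.19). The call of Ncoa4 was kept without Normal 4 but lost without any of the other 7 mice, with limma adjusted p up to 0.0994. Ireb2, the related iron sensor, rose by 0.21, and Slc25a28, a mitochondrial iron carrier, rose by 0.24. Fth1, the ferritin heavy chain and the most abundant gene of the list, had a log2 fold change of -0.08 (limma adjusted p = 0.527).

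Neither of the non-erythroid globins in the table passed limma's test, adjusted or at an unadjusted p below 0.05 (0 of 2). Cygb, cytoglobin, had 17.4 ± 2.21 FPKM in Normal and 17.1 ± 1.08 in HFD mice (SD, n = 4 each, log2 fold change -0.01, limma adjusted p = 0.918). Ngb, the neuronal neuroglobin, had 1.5, 3.4, 5.3 and 2.8 FPKM in Normal 1 to 4 and 5.1, 5.5, 2.8 and 5.7 in HFD 1 to 4, with overlap between the diets (log2 fold change 0.62, limma adjusted p = 0.197). The other 8 globin genes listed were not analysed here.

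**Figure D4:**
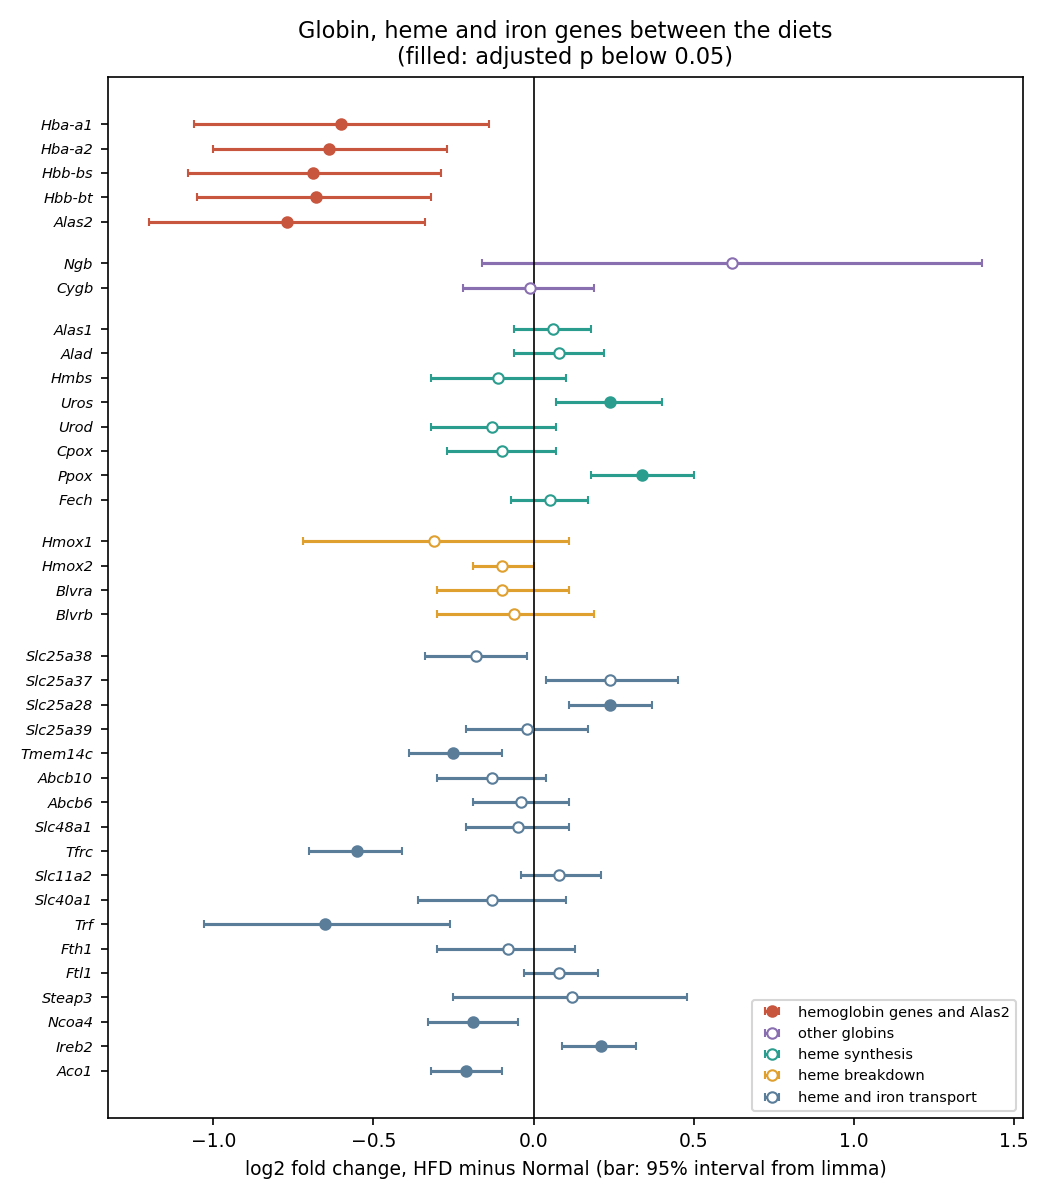
Log2 fold change, HFD minus Normal, with its 95% interval from limma (horizontal axis) for hemoglobin genes and Alas2, other globins and genes of heme synthesis, breakdown and transport. Filled points passed the adjusted threshold, and Trf and Tfrc are the other genes of the plot with log2 fold changes below -0.5.

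Markers of blood cells other than these 5 genes were of limited use. Of 29 red cell and erythroid genes listed, 12 were in the table and tested. Of the 12, 1 fell and 1 rose (8.33% each), beside 15.3% lower and 17.7% higher among all genes tested. Bpgm, which makes the regulator of oxygen release 2,3-bisphosphoglycerate, fell by 0.27 on the log2 scale (limma adjusted p = 0.00544). Dmtn, a protein of the membrane skeleton that neurons also express, rose by 0.33 (limma adjusted p = 0.0335), a call that was lost without Normal 2, Normal 3, HFD 1, HFD 2 or HFD 3, with limma adjusted p up to 0.0882. The other 10 did not pass. Among them Epb41, another gene of the membrane skeleton, had the largest difference, with 11.8, 17.8, 19.6 and 11.8 FPKM in Normal 1 to 4 and 10.3, 10.1, 11.6 and 11.2 in HFD 1 to 4 (log2 fold change -0.46, limma adjusted p = 0.0541, below 0.05 before adjustment). Without Normal 1 or Normal 4, 2 genes of the list were lower rather than 1. The summed FPKM of the 12 genes was 357 to 388 in Normal and 380 to 422 in HFD mice, with Dmtn the most abundant of them at 109 FPKM in Normal and 136 in HFD mice. The defining markers of red cells and their precursors, such as Slc4a1, Ahsp, Gata1 and Klf1, were not analysed here.

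Few genes of other blood cells were in the table. Of 10 platelet genes, Pf4 (0.7 to 1.5 FPKM in Normal and 1.0 to 1.9 in HFD mice) and Gp1bb were in the table, and neither passed, also without adjustment. S100a9, the 1 gene in the table of 12 for neutrophils and monocytes, had 3.0, 2.8, 1.4 and 0.9 FPKM in Normal 1 to 4 and 1.6, 0.6, 1.1 and 0.5 in HFD 1 to 4 (log2 fold change -0.99, limma adjusted p = 0.103, below 0.05 before adjustment). It overlapped between the diets, and Normal 1 and Normal 2 were highest. Ighm, the 1 gene in the table of 12 for lymphocytes, had a log2 fold change of 0.27 (limma adjusted p = 0.262).

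Part of the endothelial markers were lower in HFD as well. Of 24 endothelial genes, 10 fell, 1 rose and 13 did not pass, with a median log2 fold change of -0.21, and 41.7% lower compares with 15.3% of all genes tested. The 10 became 7 without HFD 4 or with the replicate number as a block, and 11 without Normal 4. Ly6c1, the 1 that rose, had a log2 fold change of 0.23 (limma adjusted p = 0.0236). Its call was lost without Normal 3, HFD 1 or HFD 3. Ocln, a tight junction gene, fell by 0.63 on the log2 scale (limma adjusted p = 0.0104), as far as the alpha globin genes, and Itm2a fell by 0.54 (limma adjusted p = 0.00109). Cldn5, a tight junction gene of brain vessels, had 25.3 ± 0.735 FPKM in Normal and 19.2 ± 1.79 in HFD mice (SD, n = 4 each), whereas Pecam1 had 6.88 ± 0.359 and 6.53 ± 0.763 and did not pass. Nor did Cdh5, with 3.2 FPKM in both diets, or Flt1, with 8.4 in Normal and 8.12 in HFD mice. The summed endothelial FPKM was 538 to 613 in Normal and 480 to 510 in HFD mice. Bsg, the most abundant gene of the list, weighed heavily in these sums. It had 303 FPKM in Normal and 248 in HFD mice (log2 fold change -0.29, limma adjusted p = 0.00442). Of 9 genes of pericytes and smooth muscle, 1 fell and 1 rose (11.1% each), with a median log2 fold change of -0.05. Their sums were 87.2 to 99.0 in Normal and 83.0 to 89.6 in HFD mice. The 1 that fell, Rgs5, a pericyte gene, lost its call without Normal 2 or HFD 1. Cspg4, the 1 that rose, had a log2 fold change of 0.37 (limma adjusted p = 0.00493). Its call was kept in 8 of 8 cases with a mouse left out. Of 15 hypoxia-inducible genes, 6 fell and 1 rose, with a median log2 fold change of -0.28. These are 40.0% lower and 6.67% higher, beside 15.3% and 17.7% of all genes tested. Without Normal 2, 3 of them fell and none rose, and Pdk1, the 1 that rose, also lost its call without Normal 3, HFD 2 or HFD 4. The part of the vessels in the hemoglobin decrease was not tested.

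Markers of other brain regions also differed between the diets. All 7 cortical neuron markers examined were detected in every mouse, with Slc17a7, the vesicular glutamate transporter of cortical neurons, at 209.5 to 403.9 FPKM, and the HFD mean was the higher for each of them (359 against 259 FPKM for Slc17a7). Markers of the striatum, which lies under the cortex, all fell, 11 of 11 in the table, with a median log2 fold change of -1.70. Of all genes tested, 15.3% were lower. Their summed FPKM was 493, 407, 387 and 277 in Normal 1 to 4 and 105 to 114 in the HFD mice. Of 9 cerebellum markers tested, 6 fell (66.7%), with a median of -1.62. The sum over the 10 in the table was 214, 510, 627 and 281 in Normal 1 to 4 and 162 to 197 in the HFD mice. Most of the sum in Normal 1 was Itpr1 and Gabrd, with 137.4 and 43.6 FPKM. Whether the dissection differed between the diets, and its part in the hemoglobin decrease, was not tested.

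Choroid plexus and meninges, both rich in vessels, were less uniform. Of 10 choroid plexus markers 4 fell (40.0%, beside 15.3% of all genes tested). That count was 10 without HFD 4, 4 without Normal 4 and 0 without any 1 of the other 6 mice. The list had sums of 910, 789, 976 and 497 FPKM in Normal 1 to 4 and of 157, 100, 118 and 1162.5 in HFD 1 to 4. HFD 4 was thus the highest mouse for choroid plexus. The globin sums were 231.1, 216.4, 197.3 and 245.4 FPKM in HFD 1 to 4. Of 10 meningeal fibroblast markers 4 fell (40.0%), among them Col3a1 by 1.00, Igf2 by 0.71 and Col1a1 by 0.70 on the log2 scale (limma adjusted p = 0.00693, 0.00367 and 0.00419), which are as large as the decreases of the globin genes. In the other direction, 2 were higher at an unadjusted p below 0.05. These were Dcn by 0.72 and Slc22a6 by 0.51 (limma adjusted p = 0.0635 and 0.0563). The sums overlapped (602 to 922 in Normal, 712 to 963 in HFD mice), but most of each sum was Ptgds, with 718 FPKM in Normal and 813 in HFD mice, which did not pass. The part of these tissues in the hemoglobin decrease was not tested.

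**Figure D5:**
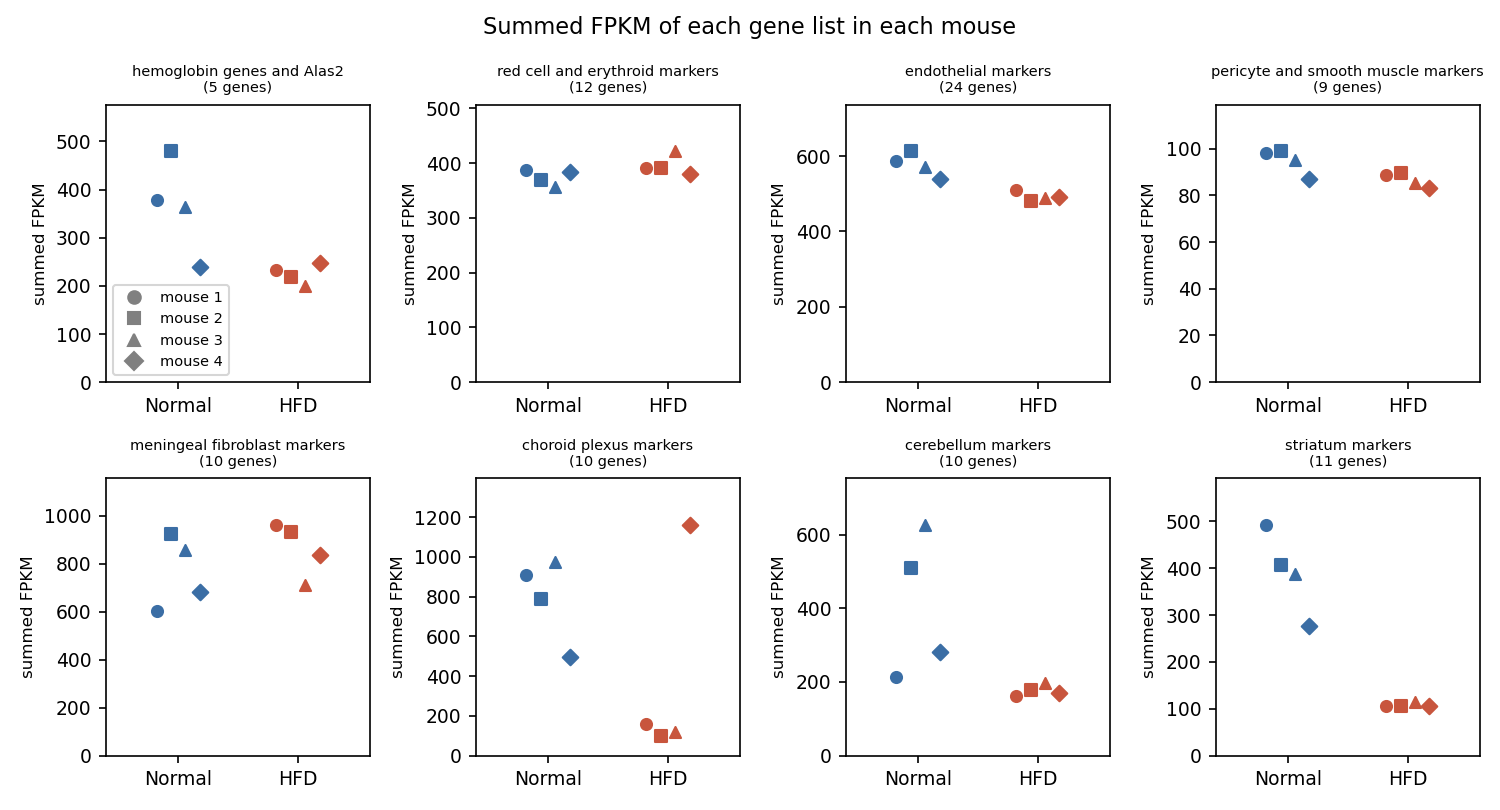
Summed FPKM (vertical axis) of the hemoglobin genes with Alas2 and of 7 marker lists in each mouse, with 1 point per mouse. Striatum, cerebellum and endothelial sums separate the diets, the red cell sums overlap, and HFD 4 is the highest mouse for choroid plexus. Bsg weighs heavily in the endothelial sums, and Itpr1 and Gabrd weigh heavily in the cerebellum sum of Normal 1.

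The genes whose mouse-to-mouse pattern was most like that of the 5 genes were found by the correlation of their deviations from the diet means over 8 mice, as a description. Of 13977 other genes, 58 had r over 0.9 and 45 had r under -0.9, and points from 8 mice of 2 diets share the pull of Normal 2 and Normal 4. The highest values were those of March3, a ubiquitin ligase (0.974), Necap2 (0.970), Ldah (0.969), Smad2, a transducer of TGF-beta signals (0.965), and Dock10 (0.961). Next came Ncoa4 (0.957), Rem2 (0.957), Ganab (0.957), Ccdc136 (0.952) and Gm23217 (0.949). Of these 10, March3 had FPKM of 3.5, 4.2, 3.5 and 2.0 in Normal 1 to 4 and of 2.1, 2.2, 1.8 and 2.1 in HFD 1 to 4, with a log2 fold change of -0.62 (limma adjusted p = 0.0393, kept without Normal 4 but lost without any of the other 7 mice, up to 0.102). Dock10, Ncoa4 and Rem2 also fell, while the other 6 did not pass the test, among them Ccdc136 with a log2 fold change of 0.15.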

How the data were processed

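Total RNA of brain cortex (RIN over 9) was depleted of rRNA, sequenced as stranded paired-end libraries, and processed by the authors. Reads were checked with FastQC, trimmed with Trimmomatic, aligned to mm10 with STAR and quantified over GENCODE M17 (GRCm38.p6) with Cuffnorm. The sources used here give no tool versions. The deposited FPKM values carry 1 decimal (steps of 0.1) and no read counts, so depth is unknown and counting intervals are not given. FPKM sums per mouse were 562431.0 to 639142.3.

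From these values, log2(FPKM + 0.1) was fitted by two-sided limma tests (version 3.58.1, R 4.3.3, variance trend on) over the 13982 genes without a 0 whose FPKM averaged 1 or more. The paper's t-test was not used. P-values were adjusted by the Benjamini-Hochberg method, and a call needed an adjusted p below 0.05. Ratios within mice were compared by exact permutation. The procedure was tested on simulated data. Coordinates come from GENCODE M21, RefSeq gave the upstream sequences, and Python 3.11.15, scipy 1.17.1 and matplotlib 3.10.9 were used.

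The 5 genes and 15 gene lists were chosen with earlier results of these data known, and the cortical markers were added after the values were seen. Some genes of the lists were taken out afterwards and are not reported here. Genes named were the 5, listed genes that passed, were most abundant or define a cell type, and the 10 most alike. Other listed genes named by their values, such as Fech, Hmox1, Hmox2 and Pecam1, were chosen after their values were seen. No source used here states that the replicate numbers of the labels pair mice. Alternatives were other added constants, filters, scalings, no trend, a replicate block and leaving out each mouse.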

Additional observations from a re-analysis of the deposited data

Results flagged for a closer look

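In HFD 3 the log2 ratio of Hba-a1 to Hba-a2 was 0.49, apart from the other 3 HFD mice, with a gap to the nearest of them of 0.938 of the whole range, past Dixon's 95% critical value for 4 samples. Of 18 groups examined in this way it was the 1 found, and chance flags about 1 in 20. The reads of this pair cannot be split with certainty, and the part of that split was not tested.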

How the results depend on the processing

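The decrease of Hba-a1 kept its size but not its call, with log2 fold changes and limma adjusted p-values of -0.60 (0.0504) without a filter, -0.59 (0.0569) with quantile normalization and -0.60 (0.0734) without the variance trend, and of -0.60 (0.0857) by the exact permutation test of the gene alone. That exact permutation test also missed 0.05 for Hba-a2 (-0.64, p = 0.0857) and Hbb-bs (-0.69, p = 0.0571) but not for Hbb-bt and Alas2 (p = 0.0286, its smallest value). With 1 mouse left out the log2 fold changes were -0.81 to -0.42 for Hba-a1, -0.82 to -0.53 for Hba-a2, -0.87 to -0.54 for Hbb-bs, -0.86 to -0.54 for Hbb-bt and -0.93 to -0.65 for Alas2, and the latter 4 genes passed in 8 of 8 cases. Alas2 could not be tested at a mean FPKM of at least 5. Only 14 rows of the table lay outside the main filter, so the setting without a filter tested little.

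With the replicate number as a block, Hba-a1 did not pass (-0.60, limma adjusted p = 0.0878), and the other 4 genes did (0.0116 to 0.0388). The block lowered the number of genes called from 4626 to 3390. The deviations of same-numbered mice from their diet means correlated at -0.109 to -0.028, and 0 of 8 mice correlated best with their own number. These correlations cannot decide whether same-numbered mice were handled together, and no source used here states a pairing.

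The diet differences of the log2 ratios changed sign for 2 of the 4 ratios. That of Hba-a1 to Hba-a2 ran from -0.025 (without Normal 1) to 0.144 with 1 mouse left out. That of Hbb-bs to Hbb-bt ran from -0.069 (without HFD 4) to 0.084, with -0.011 without HFD 2, -0.002 without Normal 4 and -0.003 with 0.1 added to both genes. The cause of these changes was not tested. Genes of the lists called together numbered 40 to 59 with a mouse left out and 41 to 58 under the other settings. Of the counts by list and direction, 47 moved by over 1.5 times and 433 did not. Many of the 433 were counts of 0 that stayed at 0, which says little about stability. With the replicate block, choroid plexus genes that fell went from 4 to 0, Uros and Dmtn missed the threshold (limma adjusted p = 0.0505 and 0.0807), and so did Ncoa4 (0.0884). The rounding of FPKM to 0.1 limits Alas2 most, and the design of 4 against 4 mice limits all values.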
